A study of Mus musculus with 2 samples.

Results

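Among colon-infiltrating donor CD8 T cells, 60 of 2391 cells carried at least 1 unique molecular identifier (UMI) of Csf2 (ENSMUSG00000018916, chr11:54247271-54249667 on the minus strand of mm10), the gene of the cytokine GM-CSF. These 60 cells are called Csf2-positive and the other 2331 cells Csf2-negative. The cells were chosen by their measured UMIs of Csf2, Cd8a, Cd8b1 and Cd4: a cell counted as CD8 with at least 1 UMI of Cd8a or Cd8b1 and 0 UMIs of Cd4. Of 5348 deposited barcodes, the 5333 that had 500 genes or more and no more than 10% mitochondrial UMIs were used. Because Csf2 itself chose the cells, its values are a description and support nothing else.

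The cells came from a mouse model of graft-versus-host disease, an attack of transplanted T cells on their new host. Lethally irradiated Balb/c mice had received B6 (C57BL/6) bone marrow, 5000000 cells, with splenocytes that gave 800000 alpha beta T cells. On day 21 the colons of 5 mice were digested with a lamina propria dissociation kit and pooled, and T cells of the donor were sorted as H2-Kb+ and TCR-B+. From this pool came 1 RNA library (10x Chromium v2 5' reagents) and, out of its cDNA, 1 library of T cell receptors (TCR), so there is 1 sample, no untreated group and no test, and cells are not replicates. The sample titles name CD4 T cells, although CD8 cells made up the largest class of the kept cells.

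GM-CSF is a secreted growth factor that acts on monocytes, macrophages, dendritic cells and granulocytes through a receptor made of an alpha chain (Csf2ra) and a shared beta chain (Csf2rb). T cells transcribe Csf2 after antigen receptor signalling, through NFAT, AP-1 and NF-kappaB factors, and its mRNA is short-lived because AU-rich elements recruit decay proteins of the Zfp36 family. CD8 T cells are known chiefly for killing by perforin and granzymes and for secreting interferon gamma and the chemokines Ccl3, Ccl4, Ccl5 and Xcl1.

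Csf2 was rare and low in CD8 cells. The 60 cells were 2.51% of the CD8 class (95% Clopper-Pearson interval 1.92 to 3.22; every interval here is at 95% and covers counting error only). They held 224 Csf2 UMIs, 8.22% of all Csf2 UMIs of the kept cells. Of the CD4 class (at least 1 Cd4 UMI and 0 of Cd8a and Cd8b1), 274 of 1861 cells were Csf2-positive, 14.7% (13.1 to 16.4). The intervals of the 2 classes did not overlap.

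Csf2 was spread unevenly among the positive CD8 cells. There were 33 cells with exactly 1 UMI, 16 with 2 to 4 and 11 with 5 or more, and the median was 1 and the maximum 27. The 10 cells with most held 139 of the 224 UMIs, 62.1%. CD4 cells that were positive had a median of 3 and a maximum of 70. Cells with 5 or more UMIs were 18.3% of the positive CD8 cells against 36.1% of the positive CD4 cells, so the class border at 1 UMI fell where most of the CD8 cells were. At that border, cells with 1 UMI are inside and cells with 0 are outside.

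Depth moved with the class. Csf2-positive CD8 cells held 2581 to 26661 UMIs with a median of 6340, and Csf2-negative ones 2554 to 39138 with a median of 4890. When the CD8 class was divided by UMI total into 4 equal groups, the positive share was 1.0%, 2.18%, 2.34% and 4.52% from the shallowest to the deepest. After every cell was thinned to 2000 UMIs, these shares were 1.0%, 1.68%, 1.17% and 1.34%, and their intervals all overlapped. Thinning left 31 positive CD8 cells, 1.30% (0.883 to 1.84), and 192 positive CD4 cells, 10.3% (8.97 to 11.8), so the lower share in CD8 cells was also seen at equal depth. No cell type known to lack Csf2 was sorted, so the share that free RNA alone would give was not measured.

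**Figure D1:**
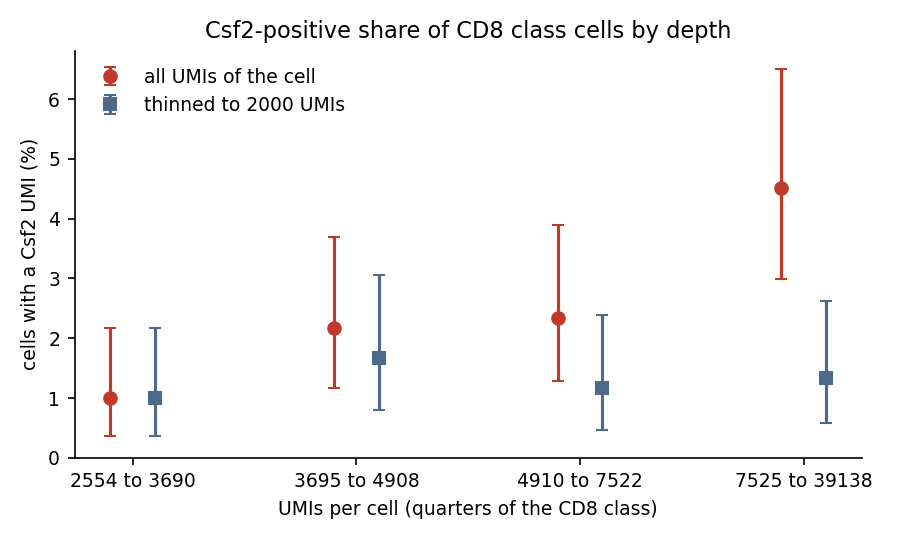
Share of CD8 cells with a Csf2 UMI (y axis, percent) in 4 groups of cells by UMI total (x axis); circles use all UMIs and squares cells thinned to 2000 UMIs, and bars are 95% Clopper-Pearson intervals. The share from all UMIs runs from 1.0% to 4.52% with depth, whereas the thinned shares lie between 1.0% and 1.68%.

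Cd8a and Cd8b1 chose the cells and so cannot check the CD8 label; they were detected in 56 and 59 of the 60 cells, with a median of 12 summed UMIs in both groups. Of genes outside the rule, the CD3 subunit gene Cd3e was found in 60 of 60. However, 7 of 12 CD8 lineage genes were at least 2-fold lower and Cd40lg was higher than in Csf2-negative cells, as described below. Those 12 genes were chosen from earlier results of these cells, and 7.29% of all 9342 genes with at least 50 UMIs were as much lower. Their median log2 ratio was -1.35 with all UMIs, -1.00 against the negative cells nearest in UMI total and -0.33 with levels from thinned cells. A gene with 0 UMIs in a group is set to a floor, which can draw ratios from thinned cells toward 1. Exactly 1 Cd8 UMI was present in 3 Csf2-positive cells (5%) and in 46 Csf2-negative cells (1.97%). The 7 B cell genes summed to 0.129 UMIs per 10000 in Csf2-positive and 0.132 in Csf2-negative cells, the 6 gamma delta T cell genes to 0.407 and 0.397, the 6 mast cell and basophil genes to 0.0370 and 0.0235, and the 6 neutrophil genes to 0 and 0.00692. Their defining genes Cd79a, Trdc, Cpa3 and S100a9 were at 0 in both groups. The 13 macrophage genes summed to 0.72 UMIs per 10000 in Csf2-positive and 1.65 in Csf2-negative cells, and 6 of them, among them Adgre1, C1qb and C1qc, were at 0 in the positive cells. Col1a1, a fibroblast collagen gene, had 3 UMIs in 2 positive cells and the other 5 fibroblast genes were at 0.

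Some signs of the CD4 lineage or of 2 cells under 1 barcode were more frequent in Csf2-positive cells. Cd40lg, the CD40 ligand gene of helper cells, was detected in 8 of 60 (13.3%, 5.94 to 24.6) against 48 of 2331 (2.06%), and Zbtb7b, the CD4 lineage factor gene, in 4 of 60 against 40. At least 2 productive TRB chains, which 1 T cell rarely carries, were found in 5 of 60 (8.33%, 2.76 to 18.4) and in 92 of 2331 (3.95%). Among the cells with a TCR chain, 7 of 56 (12.5%) carried a chain found in more CD4 than other CD8 cells, against 3.72% of the negative cells. Counting cells with any of these signs or only 1 Cd8 UMI gave 15 of 60 (25%, 14.7 to 37.9) against 9.61% (8.44 to 10.9). Cells with no TCR chain could not show the signs that rest on chains. By Csf2 UMIs the counts were 5 of 33 cells with 1, 4 of 16 with 2 to 4 and 6 of 11 with 5 or more. The 45 cells without a sign held 129 of the 224 Csf2 UMIs and made up 2.09% of the CD8 cells without a sign, and results for the genes named by rule are given for them below where the ratio moved by more than 1.5 times or lost an interval clear of 1.

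The T cell receptors of these cells show which clones they belong to. Clones are counted here as paired clonotypes, that is by the whole set of alpha and beta chains. Nucleotide sequences of the CDR3, the junction that contacts antigen, are printed for a selection. These are the clonotypes with more than 1 Csf2-positive CD8 cell and a chain seen in both lineages. Letters run 5′ to 3′. Capitals mark the stretch that is not shared at its start with at least 20% of the distinct CDR3s of the same V segment, nor at its end with those of the same J segment. Only the beta chain is shown for the 88-cell clone, whose cells carried 2 alpha chains.
12-cell clone, TRB (TRBV13-3, TRBJ1-1): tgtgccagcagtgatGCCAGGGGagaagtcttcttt
12-cell clone, TRA (TRAV4D-4, TRAJ40): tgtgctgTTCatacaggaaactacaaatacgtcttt
2-cell clone, TRB (TRBV13-3, TRBJ2-7): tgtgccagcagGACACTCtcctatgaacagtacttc
2-cell clone, TRA (TRAV12D-2, TRAJ37): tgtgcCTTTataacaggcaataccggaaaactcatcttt
88-cell clone, TRB (TRBV13-1, TRBJ2-5): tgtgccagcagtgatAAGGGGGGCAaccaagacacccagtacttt
alpha chain in both lineages (TRAV3-3, TRAJ42): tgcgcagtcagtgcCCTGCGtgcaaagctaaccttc
The 12-cell clone held 3 Csf2-positive cells, each with 1 Csf2 UMI, among 12 CD8 cells. Both cells of the 2-cell clone were positive, with 4 Csf2 UMIs together. The 88-cell clone had 2 positive cells among 87 CD8 cells. The other 30 clonotypes with a positive cell had 1 each, so no paired clonotype accounted for the Csf2-positive cells. The chains of the clonotypes of 263, 56 and 30 cells also occurred in 1-cell clonotypes with a further alpha chain, counted apart here. Those 1-cell clonotypes held 3 to 15 Csf2 UMIs each.

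Several chains of Csf2-positive CD8 cells were found in more CD4 than other CD8 cells. The alpha chain printed above was in the most Csf2-positive CD8 cells, and the others were in 1 each. This printed chain was carried by 15 CD4 cells, 3 of them Csf2-positive with up to 15 UMIs. It was also carried by 5 CD8 cells, of which 4 were Csf2-positive with 37 UMIs together and 3 had 5 or more UMIs. In those with 3, 10 and 15 Csf2 UMIs it was a second alpha chain. It stood there beside the beta and alpha chains of the CD8 clonotypes of 263, 56 and 30 cells, in that order. Of the 11 Csf2-positive CD8 cells with 5 or more UMIs, 4 carried a chain found in more CD4 than other CD8 cells. Their part in the results was not tested beyond leaving these cells out.

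Fewer Csf2-positive than Csf2-negative CD8 cells belonged to an expanded clone. A clonotype was the set of productive alpha and beta CDR3 sequences with their segments, in cells with exactly 1 beta and at least 1 alpha chain; expanded clones had at least 2 kept cells. Of 37 Csf2-positive cells with a clonotype, 16 were in expanded clones, 43.2% (27.1 to 60.5), against 1012 of 1233 negative cells, 82.1% (79.8 to 84.2). The 37 cells fell into 33 clonotypes. Negative cells nearest in UMI total gave 79.4%, and cells without a CD4 or 2-cell sign gave 51.6% against 83.9%.

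The gap was smaller when the beta chain alone defined the clone. Then 33 of 46 positive cells, 71.7% (56.5 to 84.0), against 87.4% (85.7 to 89.0) of negative cells shared their chain. A second alpha chain, which splits a paired clonotype, was present in 11 of 37 positive cells (29.7%) and 13.3% of negative cells. Among cells with 1 alpha chain the expanded share was 50% (29.9 to 70.1) against 83.7%. Of the 6 cells with 5 or more Csf2 UMIs and a clonotype, 0 were in an expanded paired clone, but 4 of them had a beta chain carried by 68 to 297 cells. These 4 cells thus count as 1-cell clones only where alpha chains enter the definition.

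Seen from the clones, the Csf2-positive share was highest among CD8 cells in clonotypes of 1 cell. It was 21 of 242 there (8.68%, 5.45 to 13.0), 7 of 282 in clonotypes of 2 to 9 cells (2.48%, 1.0 to 5.05) and 9 of 746 in those of 10 or more (1.21%, 0.553 to 2.28). The median depth was 5560, 5674 and 5531 UMIs, and thinned cells gave 5.37%, 1.06% and 0.134%. With the beta chain alone the shares were 5.99%, 4.23% and 1.64%, and the intervals of neighbouring sizes overlapped. In the 15 positive cells whose clone mates could be classed, the mates were mostly CD8 cells in 15. Only expanded clones have mates, and they held 14 positive cells with 1 Csf2 UMI, 2 with 2 to 4 and 0 with 5 or more. The mates therefore do not show the lineage of the cells with 5 or more Csf2 UMIs.

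**Figure D2:**
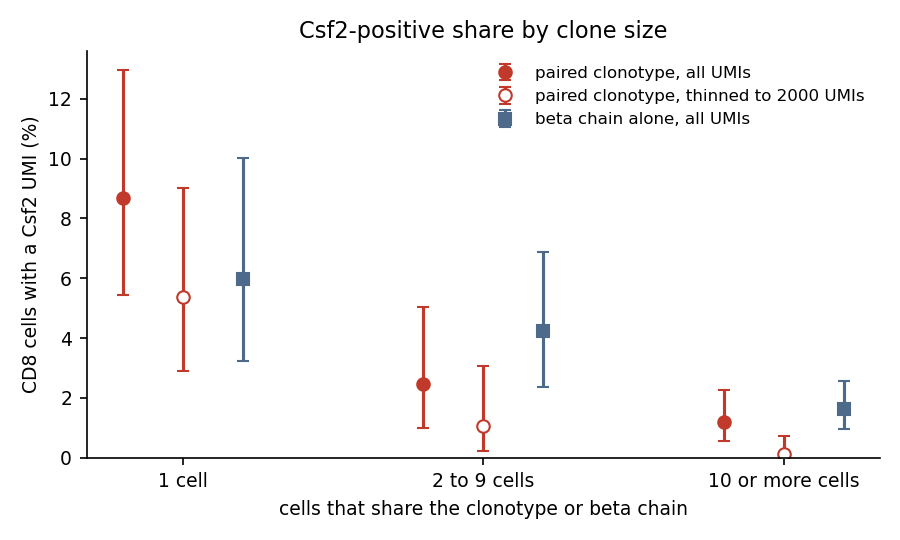
Share of CD8 cells with a Csf2 UMI (y axis, percent) by the number of cells with the same clonotype (x axis); filled circles use paired chains, open circles paired chains in cells thinned to 2000 UMIs, squares the beta chain alone, and bars are 95% Clopper-Pearson intervals. The paired share runs from 8.68% in 1-cell clonotypes to 1.21% in those of 10 or more cells, and with the beta chain alone from 5.99% to 1.64%.

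The beta segment TRBV13-3 was used by 7 of 46 positive cells with 1 beta chain (15.2%, 6.34 to 28.9) and by 50 of 1623 negative cells (3.08%, 2.30 to 4.04), and 5 of those 7 cells belong to the 12-cell and 2-cell clones printed above. TRBV4 was used by 2 of 46 (4.35%) and 16.5%. No Csf2-positive cell with a clonotype had the invariant alpha chain of NKT or MAIT cells.

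For gene expression, UMIs were summed over the cells of a group and divided by the group's total without Csf2, and the ratio of these levels, positive over negative, was compared with 2-fold. Of 9342 genes with at least 50 UMIs over both groups, 336 (3.6%) were at least 2-fold higher and 681 (7.29%) at least 2-fold lower in Csf2-positive cells, with a median log2 ratio of -0.01. Most of these genes had few UMIs: among the 3993 genes with at least 500 UMIs, 35 were higher and 82 lower. In CD4 cells 2.02% and 2.83% of 8915 genes passed the same folds.

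The 12 genes that ranked highest were the chemokine genes Ccl1 and Xcl1, the TNF family ligand genes Tnfsf11, Tnfsf9 and Cd70, the chemokine receptor gene Ccr8, the surface protein genes Cd83 and Cd81, and Ccdc184, Nrgn, Slc16a11 and Nrn1. Of these, Nrn1 had a log2 ratio of -0.38 when the classes were set on thinned cells under 1 of 2 seeds. Xcl1, a chemokine for XCR1-bearing dendritic cells (chr1:164931644-164935527), was detected in 34 of 60 positive cells, up to 126 UMIs in 1 cell, and in 266 of 2331 negative cells. Its level was 8.90 UMIs per 10000 (8.12 to 9.73) against 1.08, a ratio of 8.22 (7.40 to 9.11). Against negative cells nearest in UMI total the Xcl1 ratio was 7.86, and without cells with a CD4 or 2-cell sign 9.10. The difference was therefore about as large at like depth and without those cells.

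Ccl1, a ligand of CCR8, reached 4.18 against 0.17 UMIs per 10000, a ratio of 24.5 (20.4 to 29.5), but 1 cell held 134 of its 226 UMIs, 59.3%. The Ccl1 UMIs were found in 14 positive and 49 negative cells. Ccr8, the receptor gene itself, was 7.72-fold higher (5.59 to 10.5) and was detected in 20 positive cells. Ccl3, an inflammatory chemokine gene, was 2.47-fold higher, with 46.6% of its UMIs in 1 cell and a log2 ratio of -0.17 once cycling cells were left out, and Ccl4 1.43-fold higher (1.32 to 1.55). Of the 8 chemokine genes measured, 3 were at least 2-fold higher and 1, Ccl5, lower, beside 3.6% and 7.29% of all measured genes.

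Of the 14 TNF family and costimulatory genes measured, 7 were at least 2-fold higher and 0 lower, with a median log2 ratio of 0.87. All measured genes gave 3.6% higher and 7.29% lower. Tnfsf11 (RANK ligand, which drives osteoclast and lymphoid tissue development) was detected in 22 of 60 against 107 of 2331 cells, with a ratio of 8.96 (6.55 to 12.1). Tnfsf9 (4-1BB ligand) had a ratio of 7.30 (5.59 to 9.42) with UMIs in 24 positive cells, and Tnfsf8 (CD30 ligand) 6.4 (4.54 to 8.87) with UMIs in 21. Cd70, the ligand of CD27, was 8.13-fold higher (4.74 to 13.4). Among the receptors, Tnfrsf4 (OX40) was 2.94-fold (2.60 to 3.33) and Tnfrsf9 (4-1BB) 2.16-fold (1.90 to 2.44) higher, while Icos, Cd28 and Cd27 had ratios of 0.700, 0.732 and 0.753.

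Without the cells with a CD4 or 2-cell sign, the ratios were 9.58 for Tnfsf11, 7.32 for Tnfsf9, 9.93 for Tnfsf8 and 3.72 for Tnfrsf4. All 4 were at least as large as in all 60 cells.

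**Figure D3:**
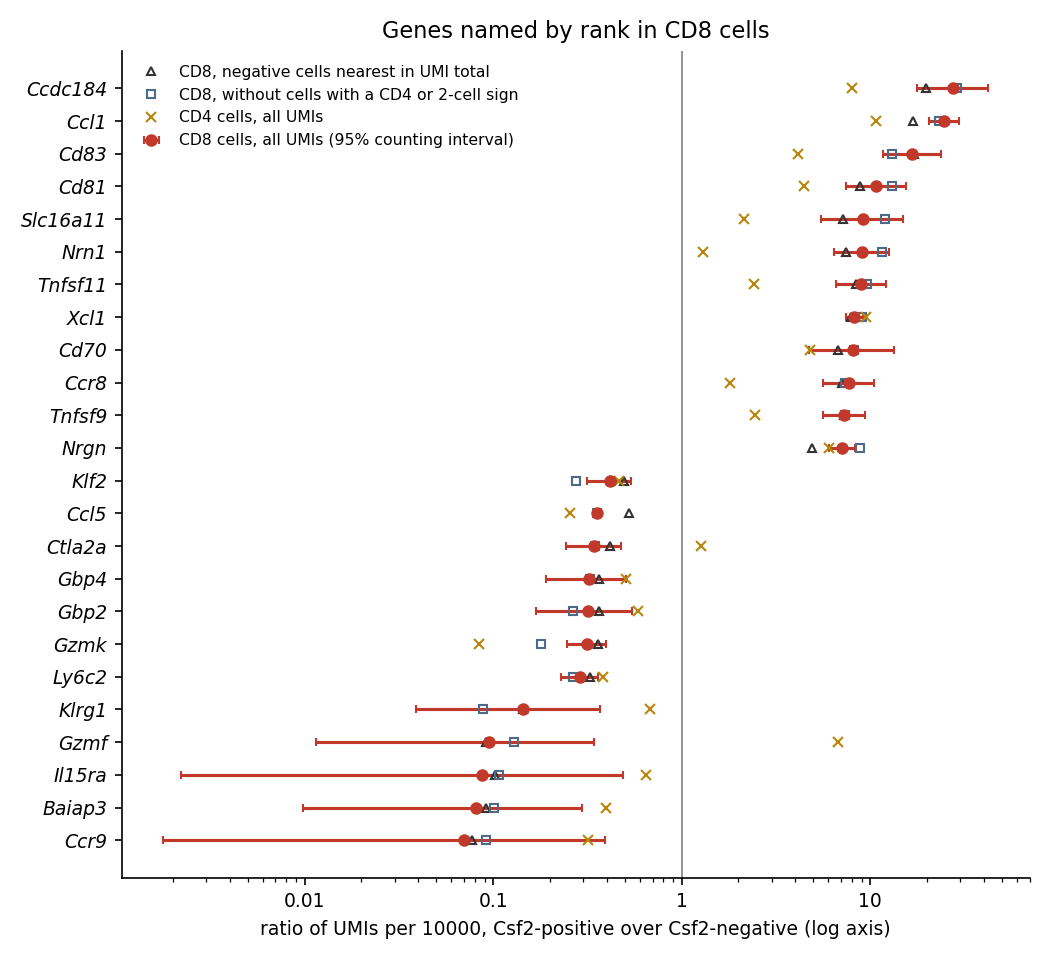
Ratio of UMIs per 10000 in Csf2-positive over Csf2-negative cells (x axis, log scale) for the 12 genes that ranked highest and the 12 that ranked lowest by the interval bound nearest 1 (y axis). Filled circles with 95% counting intervals are CD8 cells, triangles the nearest negative cells by UMI total, squares CD8 cells without a CD4 or 2-cell sign and crosses CD4 cells. Triangles and squares keep the side of 1 of the circles for all 24 genes, and the crosses of Ctla2a and Gzmf lie on the other side.

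Targets of antigen receptor signalling were higher as a group. Of 18 early-response genes measured, 7 were at least 2-fold higher and 0 lower, with a median log2 ratio of 0.95. The shares over all measured genes were 3.6% and 7.29%. Nr4a1 (Nur77), an orphan receptor gene induced within the first hours of TCR signalling, was at 7.93 against 4.06 UMIs per 10000, a ratio of 1.96 (1.77 to 2.16). At 2000 UMIs a cell, Nr4a1 was detected in 75% (62.1 to 85.3) of positive and 42.7% (40.7 to 44.7) of negative cells, and in 91.7% and 64.7% with all UMIs. Cd83, an immunoglobulin-family activation marker, was at 1.02 against 0.06 UMIs per 10000, a ratio of 16.7 (11.7 to 23.7), and was found in 15 positive and 39 negative cells. Il2ra (CD25) was 2.08-fold, Crtam, an adhesion receptor of activated CD8 cells, 3.22-fold and Egr1, an immediate-early factor, 2.93-fold higher, although 46.9% of the Egr1 UMIs were in 1 cell. Crtam was on the other side, at a log2 ratio of -0.89, with classes from thinned cells under 1 of 2 seeds. Without the cells with a sign, Egr1 was at 1.28 (0.864 to 1.83) and Nr4a1 at 1.80.

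AP-1 genes pointed the same way, with 3 of 10 at least 2-fold higher and 0 lower, beside 3.6% and 7.29% of all measured genes. Junb, the most abundant, was 1.69-fold higher (1.61 to 1.78) and Maff 5.34-fold (3.22 to 8.50). Of 12 NF-kappaB feedback genes, 0 passed 2-fold; Nfkbia, the inhibitor that NF-kappaB itself induces, was 1.85-fold higher (1.74 to 1.96). The list of genes induced by tissue dissociation, which shares Egr1, Jun, Fos and Atf3 with these groups, had 3 of 18 at least 2-fold higher and a median log2 ratio of 0.36; the 3 were Egr1, Atf3 and the heat shock gene Hspa1b, at 2.65 (1.28 to 4.92) from 11 UMIs. Its other 7 heat shock genes ran from 0.969 for Hspa8 to 1.49 for Dnajb1. The part of dissociation in these levels was not tested.

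Of 17 known regulators of Csf2 measured, 0 passed 2-fold in either direction, and their median log2 ratio was 0.46, beside -0.01 over all genes. Bhlhe40, a factor that GM-CSF production by T cells depends on, was detected in 58 of 60 positive cells and was 1.38-fold higher (1.27 to 1.49). Nfkb1 was at 1.79 and Rel at 1.58. Of the mRNA decay factors, Zfp36 was 1.78-fold higher (1.54 to 2.06) and Zfp36l2 lower at 0.542 (0.471 to 0.620). Csf2ra, the receptor's alpha chain gene, had 3 UMIs in 3 positive cells, a ratio of 1.67 (0.333 to 5.18), and the beta chain genes Csf2rb and Csf2rb2 had 0.

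Among the other cytokines, 4 of 8 measured were at least 2-fold higher and 1 lower, beside 3.6% and 7.29% of all measured genes. Ifng (interferon gamma) was 2.09-fold higher (1.82 to 2.39) and had a UMI in 39 of 60 positive cells, and its thinned detection, 35.0% (23.1 to 48.4) against 23.9% (22.2 to 25.7), overlapped. Tnf was 2.65-fold higher (1.87 to 3.65), with UMIs in 13 cells, and Csf1, the macrophage growth factor gene, 2.49-fold (1.74 to 3.48). Lta, lymphotoxin alpha, had a ratio of 7.26 with 68.0% of its UMIs in 1 cell. Il10, an inhibitory cytokine gene, was the lower one, with 2 UMIs and a ratio of 0.481 (0.0576 to 1.78).

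The neighbours of Csf2 in the type 2 cytokine region were nearly silent. Il3 had 0 UMIs in either group, Il5 and Il4 had 0 and 1 UMIs in the positive cells, and Il13 had 3 UMIs in 3 cells, a ratio of 3.64 (0.698 to 12.1), or 7.45 (0.770 to 37.3) from 2 UMIs without the cells with a sign. Il2, the T cell growth factor gene, had 0 UMIs in the 60 cells, where 3 counts of 60 set a limit of 5.0% of cells with a UMI and the Clopper-Pearson upper bound is 5.96%, and 21 in the negative cells.

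A group of genes that mark an Xcl1, Ccl1 and Penk expressing state, listed from earlier results of these cells, was higher almost throughout. Of its 8 measured genes 7 were at least 2-fold higher, beside 3.6% of all measured genes. Penk, the proenkephalin gene, was at 3.85 against 0.986 UMIs per 10000 (ratio 3.90, 3.36 to 4.52), Nrgn, a calmodulin-binding protein gene, 7.07-fold higher (6.04 to 8.25), and Ccdc184 27.3-fold (17.6 to 42.4). A UMI of Xcl1, Ccl1 or Penk was present in 41 of the 60 cells with all UMIs, and in 13 of the 31 cells (41.9%) that stayed positive after thinning. The Csf2-positive share was 10.3% (7.49 to 13.7) of the 398 CD8 cells with such a UMI and 0.953% (0.575 to 1.48) of the 1993 without. Their median depths were 6931 and 4707 UMIs, and thinned cells gave 5.16% (2.78 to 8.66) and 0.842% (0.499 to 1.33), so the intervals did not overlap at equal depth either.

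Several of the TNF family and TCR response genes were higher within each of these strata as well. Among cells with such a UMI, 41 against 357, Tnfsf9 was at a ratio of 3.82, Tnfsf11 at 4.96 and Nr4a1 at 1.44. Among cells without one, 19 against 1974, the ratios were 12.4 for Tnfsf9, 8.27 for Tnfsf11 and 2.60 for Nr4a1. Others were not: Egr1 was at 1.14 (0.771 to 1.64) in cells with such a UMI, and in cells without one Tnfrsf9 was at 1.36 (0.925 to 1.92) and Crtam at 0.637 (0.131 to 1.88).

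Among the 12 genes that ranked lowest were Ccl5, Gzmk, Gzmf, Klrg1, Ly6c2, Klf2 and Ccr9. Ccl5, the chemokine that effector and memory CD8 cells store (chr11:83525778-83530518), was at a median of 21 UMIs in positive and 67 in negative cells. Its level was 48.1 against 135 UMIs per 10000, a ratio of 0.356 (0.342 to 0.370), and 0.526 (0.505 to 0.547) against the negative cells nearest in UMI total. Thinned detection of Ccl5 was 73.3% (60.3 to 83.9) against 96.2% (95.4 to 97.0).

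Cytotoxic genes divided. Of 17 measured, 0 were at least 2-fold higher and 4 lower, beside 3.6% and 7.29% of all measured genes. The median log2 ratio was -0.36, and the 4 were Gzmd (at its floor of 3 UMIs), Gzmf, Gzmk and Gzmm. Gzmk, granzyme K, was at 1.37 against 4.33 UMIs per 10000, a ratio of 0.316 (0.248 to 0.397), and was detected in 16.7% (8.29 to 28.5) against 48.9% (46.9 to 51.0) of thinned cells. Gzmb, granzyme B, had a ratio of 0.592 (0.552 to 0.634), with thinned detection of 40% against 74.6%. Prf1 (perforin) was at 0.835 (0.650 to 1.06) with thinned detection of 23.3% against 23.7%, and Nkg7, a granule membrane protein gene, at 0.870. Gzmd had 0 UMIs in positive cells and 175 in negative ones, where 3 cells held all of them; Gzmf had 2 against 564 UMIs in 49 cells. With classes from thinned cells Gzmf was higher, at log2 ratios of 1.23 and 1.29 under the 2 seeds. Without the cells with a CD4 or 2-cell sign Gzmk was at 0.180 (0.125 to 0.251), and Gzmd, set at its floor, came to a ratio of 1. Granzyme genes of this cluster are close copies, so their UMIs could be assigned to a neighbour, which was not tested.

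Genes of recirculation and memory were lower in part, 5 of 12 at least 2-fold, beside 7.29% of all measured genes. Their median log2 ratio was -0.61. The 1 higher member, the lymph node homing receptor gene Ccr7, had 77.8% of its UMIs in 1 cell. Without that cell the Ccr7 log2 ratio was -0.61. Ly6c2, a surface marker of effector and memory CD8 cells, had UMIs in 19 of 60 against 1362 of 2331 cells and a ratio of 0.288 (0.228 to 0.360). Klf2, the factor that maintains tissue exit receptors, was at 0.416 (0.315 to 0.538), its target S1pr1 at 0.392 and Tcf7 (TCF-1), with 4 UMIs in 3 cells, at 0.248 (0.067 to 0.640). The Tcf7 and Il7r ratios were on the other side of 1 when the classes were set on thinned cells. The terminal effector marker Klrg1 had 4 UMIs in the positive cells and a ratio of 0.144 (0.0392 to 0.371). Without the cells with a sign, Klf2 was at 0.274 (0.186 to 0.390) and Klrg1 at 0.0884 (0.0107 to 0.320).

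Homing and residency genes were lower in 5 of 16 and higher in 1, Ccr8, beside 7.29% and 3.6% of all measured genes. Ccr9, the gut homing receptor gene, had 1 UMI in positive and 381 in negative cells (0.0701, 0.00177 to 0.393), and Itgae (CD103, the epithelial retention integrin) had 2 UMIs, both in 1 cell, against 289. Ccr2, a receptor gene for inflammatory chemokines, was at 0.445, and Cxcr6, a tissue residency receptor gene, at 1.17. Interferon-induced genes were lower in 5 of 12, beside 7.29% of all measured genes. Among them was Irf7, the interferon regulatory factor gene, at 0.405 (0.239 to 0.643), whereas Isg15 was at 1.18. The list's median log2 ratio was -0.71, -0.66 against the negative cells nearest in UMI total and -0.29 with levels from thinned cells. The guanylate-binding protein genes Gbp2 and Gbp4, which interferon gamma induces, were at 0.318 and 0.321.

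Fate factors and inhibitory receptors were mixed. Tbx21 (T-bet) was at 1.08 (0.814 to 1.42), Runx3 at 0.986 and Prdm1 at 1.01, with intervals or values close to 1, while Eomes was at 0.432 (0.259 to 0.678). Pdcd1 (PD-1) was at 0.940 (0.831 to 1.06), Lag3 at 1.59 (1.34 to 1.87), Tox, an exhaustion-associated factor gene, at 2.01 (1.60 to 2.50) and Ctla4 at 0.703 (0.601 to 0.819). Inhibitory receptor genes as a list had 2 higher and 1 lower of 12, beside 3.6% and 7.29% of all measured genes. Of 12 genes chosen as CD8 lineage markers from earlier results of these cells, 0 were at least 2-fold higher and 7 lower. Their median log2 ratio was -1.35, -1.00 against the negative cells nearest in UMI total and -0.33 with levels from thinned cells. Of 3 measured CD4 lineage genes 2 were higher, Cd40lg at 4.57 (2.33 to 8.29) and Tnfrsf4. Without the cells with a CD4 or 2-cell sign, Ccl5 was at 0.353, Ly6c2 at 0.267 and Tnfrsf4 at 3.72, so these differences were as large; Cd40lg is itself such a sign.

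The 17 cycling genes had a median log2 ratio of 0.47, with 0 at 2-fold. The median was 0.36 with levels from thinned cells but -0.10 against the negative cells nearest in UMI total, and Mki67, the proliferation marker, was detected in 11.7% of thinned positive and 16.6% of thinned negative cells. Cells with at least 2 UMIs over Mki67 and Top2a had a Csf2-positive share of 3.75% with all UMIs and 0.647% after thinning, against 2.11% and 1.39% of the others. Glycolysis genes had 0 of 15 past 2-fold and a median log2 ratio of 0.09.

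**Figure D4:**
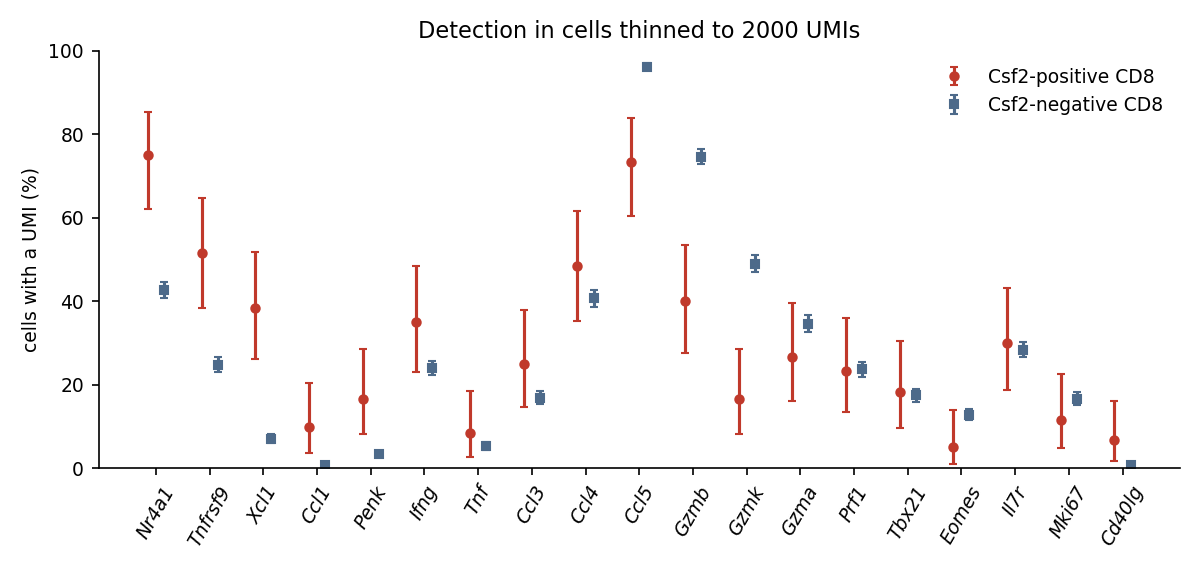
Share of cells with a UMI (y axis, percent) of 19 effector, activation and state genes (x axis) after each CD8 cell was thinned to 2000 UMIs; circles are the 60 Csf2-positive and squares the 2331 Csf2-negative cells, and bars are 95% Clopper-Pearson intervals. Nr4a1, Tnfrsf9, Xcl1, Ccl1, Penk and Cd40lg were detected more often and Ccl5, Gzmb and Gzmk less often in positive cells with intervals apart, whereas those of Ifng, Prf1, Tbx21 and Mki67 overlap.

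The amount of Csf2 in a cell went with some of these genes and not with others. Tnfsf11 stood at 0.122, 0.498, 1.15 and 2.79 UMIs per 10000 in cells with 0, 1, 2 to 4 and 5 or more Csf2 UMIs, and it was detected in 9 of the 11 highest cells. Tnfsf9 stood at 0.195, 1.13, 1.51 and 2.19, and Ccl5 in the reverse order at 135, 59.7, 35.2 and 31.4, where the intervals of neighbouring positive bands overlapped for Tnfsf11 and Tnfsf9, as did those of the 2 highest bands for Ccl5. Xcl1 stood at 1.08, 6.64, 13.7 and 9.06 and Ifng at 2.08, 3.49, 8.13 and 1.69, each highest in cells with 2 to 4 UMIs. In that band, however, 1 cell held 126 of the 190 Xcl1 UMIs and 1 cell 60 of the 113 Ifng UMIs. Without the top cell of each positive band, Xcl1 stood at 3.89, 4.6 and 5.27 and Ifng at 2.86, 3.81 and 0.896. The 33 cells with a single Csf2 UMI thus already differed from the negative cells in Xcl1, Nr4a1 (8.50 against 4.06), Tnfrsf4 (4.25 against 1.79) and Ccl5. However, these 33 cells were deeper, at a median of 6402 against 4890 UMIs, and the bands were not compared at equal depth. Of the 11 highest cells, 6 had a CD4 or 2-cell sign, whose part in the last step was not tested.

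**Figure D5:**
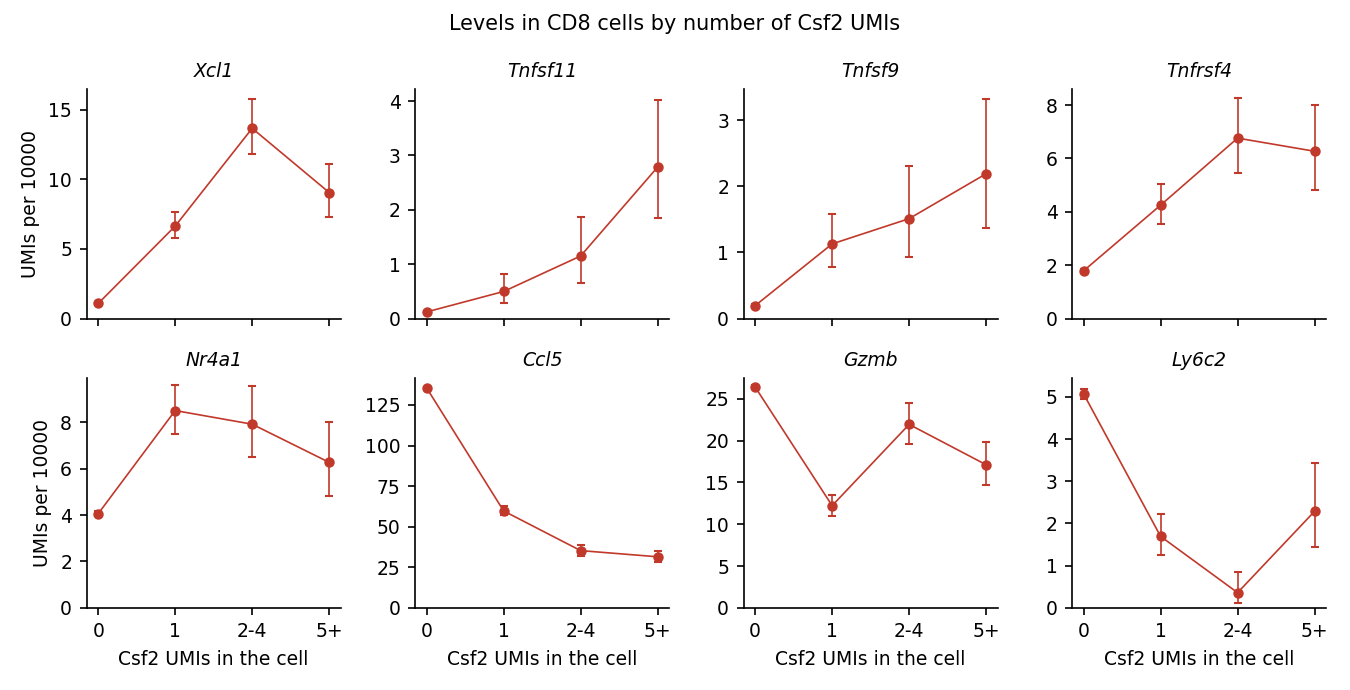
Level of 8 genes (y axes, UMIs per 10000, each from 0) in CD8 cells with 0, 1, 2 to 4 and 5 or more Csf2 UMIs (x axes; 2331, 33, 16 and 11 cells), with exact 95% Poisson intervals. Tnfsf11 and Tnfsf9 step up at each band, Ccl5 steps down, Nr4a1 is at 8.50 with 1 UMI and 6.27 with 5 or more, and Gzmb and Ly6c2 follow no order.

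The 11 highest cells did not share a single profile. The cell with 27 Csf2 UMIs among 4892 had 11 UMIs of Tnfsf9, 9 of Tnfrsf4, 4 of Tnfsf11 and 0 of Xcl1, Ccl1, Gzmb and Gzmk. A cell with 15 Csf2 UMIs had 59 of Ccl1, 90 of Ccl4, 37 of Xcl1 and 26 of Gzmb, and carried 2 beta chains. Another with 18 Csf2 UMIs and 2 beta chains had 51 UMIs of Gzmb and 0 of Xcl1, Ccl1, Ccl4 and Ccl5. A cell with 7 Csf2 UMIs had 38 UMIs each of Xcl1 and Nrgn and 24 of Tnfrsf4. It showed none of the signs, but it had no TCR chain, so those that rest on chains could not be scored. Ifng was absent from 6 of the 11 and Tnf from 8.

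Set beside the same split in CD4 cells, the CD8 cells had a larger ratio for Tnfsf11, Tnfsf9 and Tnfrsf4 and a like one for Xcl1. Genes were named by their ratios in CD8 cells, and this choice by itself favours ratios further from 1 in CD8 than in CD4 cells. Tnfsf11 was at 8.96 (6.55 to 12.1) in CD8 and 2.43 (2.26 to 2.60) in CD4 cells, Tnfsf9 at 7.30 and 2.46 (2.07 to 2.91), and Tnfrsf4 at 2.94 and 1.16 (1.11 to 1.22). The level of Tnfsf11 in positive cells was nonetheless higher in CD4 cells, 6.46 against 1.09 UMIs per 10000. Xcl1 was at 8.22 and 9.48 (8.25 to 10.9), Penk at 3.90 and 4.19, Nr4a1 at 1.96 and 1.76 and Ifng at 2.09 and 2.29 (2.09 to 2.51), and the Xcl1 level was higher in positive CD8 cells, 8.90 against 3.23. Ccl5 and Gzmk were lower in both, at 0.356 and 0.257 and at 0.316 and 0.0842. Intervals of the CD8 and CD4 ratios were apart for Tnfsf11, Tnfsf9, Tnfrsf4, Ccl5 and Gzmk, and they cover counting error only, without a test between animals.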

How the data were processed

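The RNA values are the deposited UMI counts per gene and barcode, whole numbers that were not normalized. Cell Ranger and mm10 are named per the submitters' processing notes, with no version stated. The TCR table gives the authors' deposited read and UMI counts of 18289 contigs with chain, segments, CDR3 and productive calls. Barcodes with at least 500 genes and at most 10% mt- UMIs were kept; 15 exceeded the second limit and 1 of them also missed the first. Counts of 36 repeated symbols were kept apart by gene ID.

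Levels are summed UMIs per 10000, without Csf2, with exact Poisson intervals. Shares have Clopper-Pearson and ratios exact conditional binomial intervals, at 95% throughout. A gene with 0 UMIs in a group was set to 3 UMIs over the group, or to a ratio of 1 where that floor would cross it. Thinning drew 2000 UMIs a cell (seed 1). Nearest negatives were 10 per positive cell by UMI total, 600 cells, without reuse. No doublet caller was run; cells with 2 or more productive TRB chains or other signs were left out in alternatives.

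To name genes, those with 50 or more UMIs were ranked in each direction by how far the nearer interval bound lay from 1, and the first 12 were taken; higher genes also needed a UMI in 5 or more positive cells. The ranking skipped predicted models, the class genes and genes for TCR or immunoglobulin segments, ribosomal proteins and mitochondrial transcripts. From each of 29 lists the 4 members ranked best were added, with a set of effector genes. Other list members are given where they are part of a described group. The cells and lists were chosen with earlier results of these data known. Positions are 1-based, from GENCODE annotation of mm10. Ratios were tested on simulated Poisson counts without variation between cells, so the test does not cover genes whose UMIs sit in few cells. Scripts ran in Python 3.11.15 with pandas 2.3.3, scipy 1.17.1, numpy 2.4.6 and, for figures, matplotlib 3.10.9.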

Additional observations from a re-analysis of the deposited data

Results flagged for a closer look

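The genes given here come only from the 105 genes named by rule, not from all measured genes. Their ratio of Csf2-positive over Csf2-negative cells lay above 1 in 1 class and below 1 in the other. Both intervals were clear of 1, and none of these differences was tested. In CD8 cells Gzma (granzyme A) was at 0.720 (0.669 to 0.774) and in CD4 cells at 1.98 (1.86 to 2.10). In positive CD8 cells 1 cell held 41.1% of the Gzma UMIs, and Gzma was higher in those without Xcl1, Ccl1 or Penk UMIs, at 1.55 (1.39 to 1.71), and in 1-cell clonotypes, at 1.44 (1.32 to 1.57). Ctla2a, a protease inhibitor gene, was at 0.345 and 1.27, and Gzmf at 0.0948, from 2 UMIs, and 6.78 (1.15 to 46.3); with classes from thinned cells its CD8 log2 ratio was 1.23 and 1.29. Pkm, pyruvate kinase, was at 1.14 (1.03 to 1.27) and 0.869 (0.819 to 0.923), but its CD8 log2 ratio was -0.041 against the negative cells nearest in UMI total and -0.060 with thinned levels under 1 of 2 seeds. The myeloid-expressed genes Cd74 (0.462 and 2.28), Lyz2 (0.513 and 2.38), Fcer1g (0.262 and 2.95) and Tyrobp (0 UMIs in CD8-positive cells, a bound of 0.626, and 4.36) were lower in positive CD8 and higher in positive CD4 cells. With thinned levels Fcer1g had a CD8 log2 ratio of 0.45. Without cells with a CD4 or 2-cell sign, the CD8 intervals of Cd74 (0.781, 0.413 to 1.35) and Lyz2 (0.591, 0.254 to 1.18) included 1, the Tyrobp bound came to 1, and Fcer1g was at 0.170 (0.00428 to 0.961). Il17a was at 10.7 (1.02 to 65.3) from 2 UMIs in CD8 cells, 1 of them left without the cells with a sign, and at 0.262 (0.151 to 0.426) in CD4 cells.

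Cells outside the CD8 and CD4 classes also carried Csf2. Of 301 cells with UMIs of both lineages, 17.3% (13.2 to 22.0) were Csf2-positive, at a median depth of 7939 UMIs, and 26.2% of these 301 had 2 or more productive TRB chains. Of 780 cells with neither, 9.49% (7.52 to 11.8) were, at a median of 3955 UMIs.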

How the results depend on the processing

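No paired analysis was possible because the RNA and TCR libraries come from the same cells of 1 pool; for the same reason no replicate could be left out. The Csf2-positive share was 1.15% at 2 or more Csf2 UMIs and 1.53% with classes from thinned cells under each of 2 seeds. The count of genes at least 2-fold higher was 336 of 9342 (3.6%). It was 650 of 9306 (6.98%) at 2 or more Csf2 UMIs, and 527 of 9389 (5.61%) and 552 of 9401 (5.87%) with thinned classes. With levels from thinned cells it was 443 of 7186 (6.16%) and 454 of 7188 (6.32%). Against the nearest negatives it was 138 of 7672 (1.80%). It was 138 of 9342 (1.48%) without each gene's top cell and 96 of 5748 (1.67%) with 1 cell per clonotype. Other thresholds gave 558 of 10453 (5.34%) at 20 UMIs, 1193 of 14765 (8.08%) with no filter, 1073 of 9342 (11.5%) at 1.5-fold and 35 of 3993 (0.877%) at 500 UMIs. The count lower (681 of 9342, 7.29%) was 355 of 7672 (4.63%) against the nearest negatives and 1148 of 9342 (12.3%) without the top cell. With 1 cell per clonotype it was 265 of 5748 (4.61%), and with thinned levels 730 of 7186 (10.2%) and 698 of 7188 (9.71%). It was 1481 of 9342 (15.9%) at 1.5-fold and 82 of 3993 (2.05%) at 500 UMIs. The expanded share was 12.5% at 2 or more Csf2 UMIs and 71.7% from the TRB chain alone. The 500-UMI filter, the TRB-only clonotype and the removal of cells with CD4 or 2-cell signs were chosen after seeing the data. Of 1782 values of 105 genes under 17 alternatives, 96 in 31 genes lay on the other side of 1; 33 of these belonged to 17 of the 87 genes whose own interval was clear of 1 (log2): with thinned classes Birc5 -0.75 and -1.88, Ccnb1 -0.37 and -3.06, Ccnb2 -0.61 and -2.69, Top2a -0.33 and -0.89, Il7r 0.49 and 0.35, Tcf7 0.35 and 0.31, Gzmf 1.23 and 1.29 under the 2 seeds, and under 1 of them Ccr7 -1.97, Crtam -0.89, Nrn1 -0.38 and Atf3 -0.0074; with thinned levels Fcer1g 0.45 and Pkm -0.060; at 2 or more Csf2 UMIs Birc5 -0.23 and Ccr7 -0.016; with exactly 1 TRB chain Atf3 -0.21; against nearest negatives Il7r 0.13, Pkm -0.041 and Tpi1 -0.029; without the top cell Ccr7 -0.61; with 1 cell per clonotype Atf3 -1.58 and Il1r2 -0.16; and without cycling cells Birc5 -0.96, Ccl3 -0.17, Ccr7 -1.34 and Cd200r1 -0.022. The causes were not tested. Of 372 values of 22 list medians, 20 in 5 lists changed sign, among them Cycling (-0.89 to 0.53) and Glycolysis (-0.10 to 0.26); the reported medians of all 5 lay within 0.5 of 0. With 60 cells, a gene with few UMIs can rest on 1 cell.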
